A study of Mus musculus with 10 samples.

Results

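The expression of 35 genes of mitochondrial fuel oxidation was followed in the interscapular brown adipose tissue (iBAT) of wild-type and Mgp-knockout mice. The 35 genes were taken by name: 14 encode enzymes of the tricarboxylic acid (TCA) cycle and its filling reaction, and 21 encode the breakdown of the branched-chain amino acids (BCAA). All 35 were among the 27267 genes listed, and all 35 passed the filter on low values that left 13714 genes for testing. MGP, matrix Gla protein, is a secreted inhibitor of bone morphogenetic proteins, and the study asked how its loss changes brown adipose tissue.

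The wild-type group (WT, 5 libraries) and the group labelled Mgp-KO (KO, 5 libraries) both came from male C57BL/6 mice at 4 weeks of age, kept on standard chow with 12-hour light and dark periods. The knockout is a global one, the Mgp tm1Kry allele in a B6.129S7 line, so Mgp is lost in every cell type and not in adipose tissue alone, and the mice also have vascular disease. The study describes pairs of wild-type and knockout mice as the source of this RNA. No source used here ties a library or replicate number to a given animal, pair or litter, so p-values here measure the spread between libraries. Mgp itself did not follow all labels: the normalized count was 0, 0.765 and 0.821 in KO 1 to 3 but 500.2 in KO 4 and 331 in KO 5, against 466 to 1146 in wild type. KO therefore stands for libraries labelled Mgp-KO, and each direction drawn over all 10 libraries rests on those labels. Xist was 5094 in WT 2 and at most 44.0 in the other 9 libraries, which goes against the male label of WT 2. Replicates 1 to 3 of both groups also stood apart from replicates 4 and 5, with 19616366 to 22252260 reads on genes against 9253793 to 13281873, and with 0.771% to 1.72% of those reads on mitochondrial rRNA genes against 6.5% to 16.7%. The replicate numbers alone mark these sets in the labels, and WT and KO are therefore also compared within the first set (replicates 1 to 3) and the second (replicates 4 and 5), with the log2 fold change of every member in each set in the plot of members by set.

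The TCA cycle oxidises acetyl-CoA to carbon dioxide in the mitochondrial matrix and passes the electrons to the respiratory chain, which in brown adipocytes is uncoupled by UCP1 to give heat. Leucine, isoleucine and valine enter the mitochondria, lose their amino group to BCAT2, are decarboxylated by the branched-chain ketoacid dehydrogenase (BCKDH) complex and are then broken down on separate routes to acetyl-CoA, acetoacetate and succinyl-CoA, which feed the cycle. Brown adipose tissue is known for a high capacity for both pathways.

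Over all 10 libraries no member was called in either pathway. limma on log2(normalized count + 1), with Benjamini-Hochberg adjustment over all tested genes and a threshold of 0.05, called 0 of the 14 TCA cycle genes and 0 of the 21 BCAA genes, where 0.0656% of all tested genes passed. At an unadjusted p under 0.05 there were 4 members with lower values in KO (Dlst, Bckdk, Mccc1 and Mccc2; background 5.69%) and 1 with higher values (Ppm1k; background 4.67%). edgeR and DESeq2 also called 0 of the 35, and DESeq2 called 2.26% of the genes to which it gave an adjusted p. With the replicate set as a term, limma again called none (background 2.36%), with 6 members lower (Dlst, Pcx, Bckdk, Ivd, Mccc1 and Mccc2; background 10.1%) and 2 higher (Idh2 and Ppm1k; background 9.26%) at an unadjusted p under 0.05. DESeq2 with the same term called 5 of the 35: Idh2 was higher, and Pcx, Bckdk, Mccc1 and Mccc2 were lower (background 7.42%).

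The spread between libraries had a plain shape. In the library KO 4 every one of the 14 TCA cycle genes and 16 of the 21 BCAA genes had its lowest value of all 10 libraries, where KO 4 was lowest for 24.2% of tested genes. The mean log2 value of the TCA genes in KO 1 to 5, each minus the wild-type mean, was 0.23, -0.17, 0.06, -1.50 and -0.15. For the BCAA genes it was 0.16, 0.10, 0.03, -1.11 and -0.07. The wild-type libraries ran from -0.15 to 0.12 for the TCA genes and from -0.12 to 0.11 for the BCAA genes, so KO 4 alone lay far outside the range of the others. The summed normalized count of the 14 TCA genes was 85150 in KO 4 and 218078 to 295270 elsewhere, and that of the 21 BCAA genes was 46499 against 81740 to 102828.

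**Figure D1:**
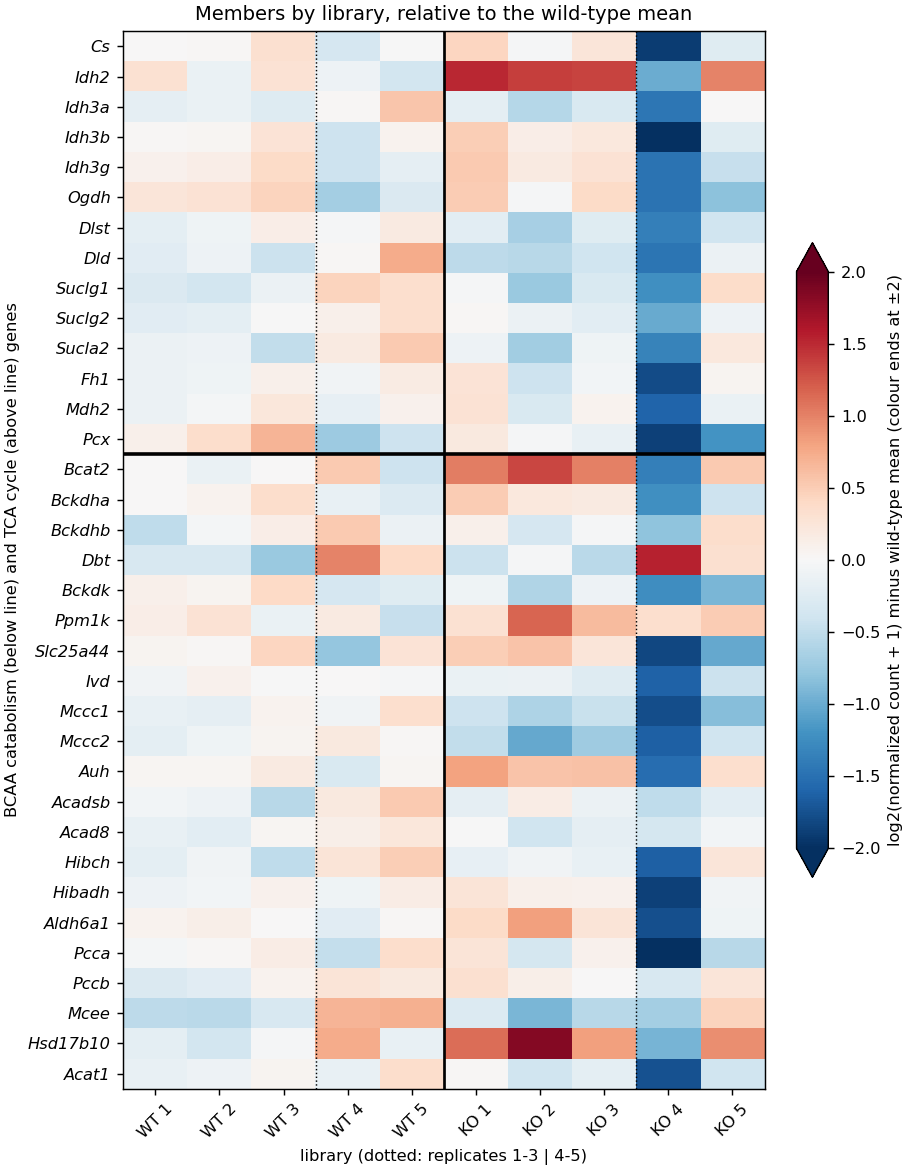
Each row is a gene, each column a library, and the colour is log2(normalized count + 1) minus the wild-type mean, from -2 (blue) to 2 (red). The KO 4 column is blue for all genes but Dbt and Ppm1k, while Idh2, Bcat2, Hsd17b10 and Auh are red in KO 1 to 3 and KO 5.

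The make-up of KO 4 differed as well. The summed normalized count of 7 erythroid genes was 101722 in KO 4 against 3012 to 26441 in the other 9 libraries, and that of 10 endothelial genes was 59964 against 19272 to 32293. Adipoq, the adipocyte hormone adiponectin, was 4675 in KO 4 against 10789 to 20088 elsewhere. Over the 12 genes of the brown adipocyte list, Adipoq among them, the sum was not lowest in KO 4. It was 211992 there, against 187165, 147360 and 177770 in KO 1 to 3, 305808 in KO 5 and at least 214187 in WT. In bulk tissue, fewer cells of a type and less RNA per cell cannot be told apart. The part of erythroid and endothelial cells in the low KO 4 values was not tested. Skeletal muscle markers moved on their own: the sum over 12 muscle genes was 35127 in KO 2 and 37982 in KO 5, up to 6409 in the wild-type libraries and 427 or less in KO 1, KO 3 and KO 4. The brown adipocyte list was present in every library with none of its 12 genes at 0, and its sum was 214187 to 415416 in WT and 147360 to 305808 in KO. Of these 12 genes 11 had a log2 fold change below 0 over all libraries, against 47.3% of all tested genes, and limma called none there. With the set term it called 3 lower, where 2.36% of all tested genes were called in either direction: the fatty acid elongase Elovl3 (-3.64, SE 0.51, adjusted p = 0.0104), the uncoupling protein Ucp1 (-2.70, SE 0.40, adjusted p = 0.0127) and the deiodinase Dio2 (-3.35, SE 0.63, adjusted p = 0.0228; 0.0657 without WT 2). Their part in the members' values was not tested.

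**Figure D2:**
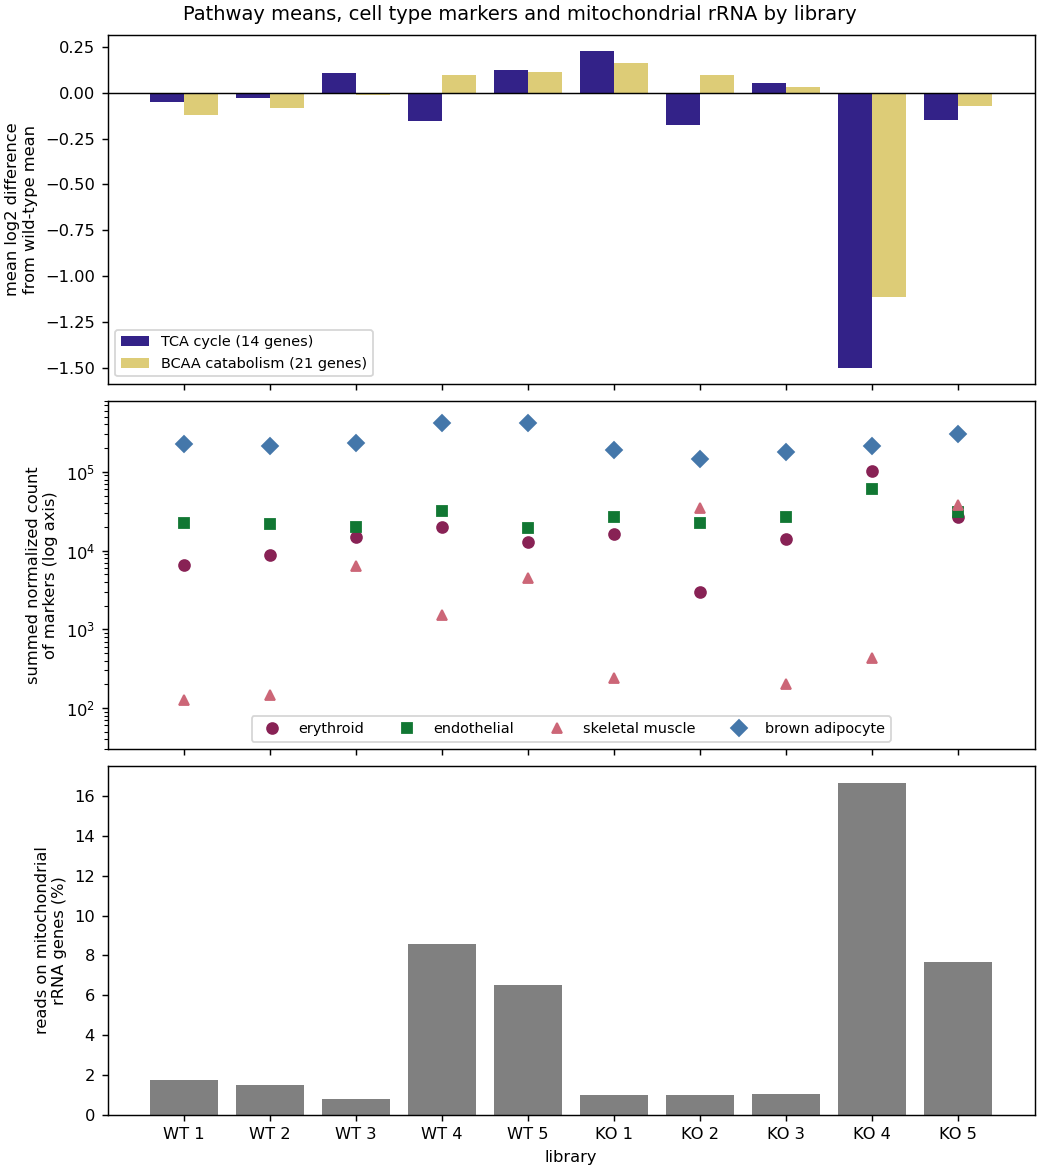
Top, mean log2 difference of the TCA and BCAA genes from the wild-type mean in each library; middle, summed normalized counts of marker genes on a log axis; bottom, percent of reads on mitochondrial rRNA genes. KO 4 has the lowest pathway means (-1.50 and -1.11), the highest erythroid sum (101722) and the highest mitochondrial rRNA share (16.7%).

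Some genes lay apart between the groups in spite of this spread. Without any overlap of the 5 WT and 5 KO values, 4 members were lower in KO (Dlst, Ivd, Mccc1 and Mccc2; 11.4% of members, background 2.11%) and 1 was higher (Ppm1k; background 1.39%). The gap was small for Dlst (18474 in KO 1, 18740 in WT 1) and very small for Ppm1k (768 in WT 2, 774 in KO 1). Genes without overlap over all libraries cannot overlap once libraries are left out, so what KO 4 and the sets can show is which genes join them. Leaving out KO 4 added no member to the lower side (background 3.33%), and added Idh2, Auh and Hsd17b10 to Ppm1k on the higher side (background 3.0%). Asking for no overlap within each set, but not between the sets, added Bckdk to the lower side (background 6.31%) and none to the higher side (background 4.54%). The sequences upstream of 4 of these genes are shown because they are the members whose groups did not overlap over 10 libraries and whose RefSeq window lies wholly before the annotated gene. Each is the 250 bases before the RefSeq transcription start on GRCm38.p6, 5′ to 3′ on the strand of the gene: Mccc1 at chr3:36000679-36000928 (minus strand), Mccc2 at chr13:100015640-100015889 (minus), Dlst at chr12:85110583-85110832 (plus) and Ppm1k at chr6:57535488-57535737 (minus). Capitals mark a match to CACGTG, the E-box.
Mccc1: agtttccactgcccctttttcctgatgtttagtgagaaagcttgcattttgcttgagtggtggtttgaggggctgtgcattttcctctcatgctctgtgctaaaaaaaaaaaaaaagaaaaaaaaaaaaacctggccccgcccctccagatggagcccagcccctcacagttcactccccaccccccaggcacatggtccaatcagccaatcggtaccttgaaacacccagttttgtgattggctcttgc
Mccc2: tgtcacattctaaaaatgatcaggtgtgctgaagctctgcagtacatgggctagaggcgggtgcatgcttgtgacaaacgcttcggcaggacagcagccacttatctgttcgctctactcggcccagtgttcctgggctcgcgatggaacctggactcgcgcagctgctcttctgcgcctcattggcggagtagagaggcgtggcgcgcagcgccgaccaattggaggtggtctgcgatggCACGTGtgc
Dlst: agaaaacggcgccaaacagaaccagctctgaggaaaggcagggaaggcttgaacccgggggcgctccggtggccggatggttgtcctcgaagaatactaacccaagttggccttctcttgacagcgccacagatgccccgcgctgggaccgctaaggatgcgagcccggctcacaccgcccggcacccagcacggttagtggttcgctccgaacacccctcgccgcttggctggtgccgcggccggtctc
Ppm1k: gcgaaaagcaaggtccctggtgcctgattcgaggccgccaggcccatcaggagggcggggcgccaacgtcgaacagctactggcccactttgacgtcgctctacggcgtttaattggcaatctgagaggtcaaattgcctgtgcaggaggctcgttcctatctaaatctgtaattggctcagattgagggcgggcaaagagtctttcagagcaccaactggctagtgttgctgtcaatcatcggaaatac

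The E-box in Mccc2 starts 9 bases before the transcription start, and the window of its partner gene Mccc1 held no match to any motif searched. The windows also differ in base composition, with 48.4% G and C and 2 CpG in Mccc1 and 58.8% and 18 CpG in Mccc2. Dlst had 64.8% and 23 CpG, and Ppm1k had 54.4% and 14 CpG. Of the 35 members, 31 had such a window in the RefSeq table. On both strands, the E-box CACGTG was in the windows of 3 of the 31 (Ogdh, Pcx and Mccc2) against 6.86% of 27025 genes, the NRF1 motif in 3 (Sucla2, Hibadh and Pccb) against 4.23%, and CCGGAAG (GABPA) in 2 (Idh3g and Auh) against 7.83%. AAGGTCA, the half-site of the estrogen-related receptors, was in 0 of 31 against 4.70%, and TGATGNAA, bound by ATF4 dimers, in 0 of 31 against 3.91%. None of these motifs overlapped another in the members' windows, and a match in these letters is a description of the sequence only.

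Mccc1 and Mccc2 encode the 2 subunits of 3-methylcrotonyl-CoA carboxylase, a biotin enzyme of leucine breakdown. Mccc2 (chr13:99948530-100015639, GRCm38) had normalized counts of 1935, 2076, 2297, 2521 and 2253 in WT 1 to 5 and of 1576, 1080, 1341, 711 and 1680 in KO 1 to 5. Every KO value lay below every WT value. The log2 fold change was -0.85 (SE 0.23, limma adjusted p = 0.201 over all libraries and 0.0704 with the set term), -0.67 (SE 0.16, adjusted p = 0.0663) within replicates 1 to 3 and -1.12 (SE 0.46, adjusted p = 0.679) within replicates 4 and 5. Mccc1 (chr3:35959312-36000678) had 2192, 2154, 2541, 2307 and 3051 in WT and 1825, 1588, 1792, 709 and 1345 in KO, again with no overlap. Its log2 fold change was -0.82 (SE 0.26, limma adjusted p = 0.262, 0.0891 with the set term), and -0.40 and -1.44 within the sets. Of the exonic length of Mccc1, 5.60% is shared with genes on the opposite strand. The ratio of Mccc2 to Mccc1 per kb of exon was 2.89 to 4.27 in WT and 2.66 to 4.88 in KO, so it overlapped between the groups.

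Ivd, isovaleryl-CoA dehydrogenase, acts just before this carboxylase on the leucine route. Ivd was tight in wild type, at 4130, 4592, 4276, 4340 and 4259, and was 3943, 3981, 3611, 1412 and 3189 in KO. The groups did not overlap, but within replicates 1 to 3 the log2 fold change was only -0.17 (SE 0.11, limma adjusted p = 0.398) against -1.02 (SE 0.46, adjusted p = 0.679) within replicates 4 and 5. Auh, the hydratase after the carboxylase, went the other way in the first set. It had 1610, 1599, 1767, 1266 and 1611 in WT and 2740, 2319, 2352, 542 and 1973 in KO, so that KO 4 was the lowest of all libraries and the other 4 KO libraries lay above every WT library.

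The kinase and phosphatase of the BCKDH complex stood on opposite sides. BCKDK phosphorylates and inactivates the complex, and PPM1K removes the phosphate. Bckdk (chr7:127904082-127910221) had 2194, 2119, 2688, 1612 and 1727 in WT and 1914, 1339, 1902, 855 and 1080 in KO. Within each set the KO values lay below the WT values, and with the set term the log2 fold change was -0.59 (SE 0.16, limma adjusted p = 0.0731). Ppm1k (chr6:57506502-57535468) had 691, 768, 570, 714 and 455 in WT and 774, 1417, 971, 793 and 899 in KO, with no overlap. That separation rests on a very small gap, with WT 2 at 768 and KO 1 at 774. The log2 fold change of Ppm1k was 0.59 (SE 0.22, limma adjusted p = 0.343), and it was alike in the sets, at 0.60 (SE 0.23) and 0.57 (SE 0.35). The ratio of Bckdk to Ppm1k per kb of exon was 3.68 to 7.68 in WT (median 5.17) and 1.54 to 4.03 in KO (median 1.96), with KO 1 alone inside the WT range. The muscle marker sums were 35127 in KO 2, the highest library for Ppm1k, 37982 in KO 5, 242 in KO 1, 202 in KO 3 and 427 in KO 4, and the part of muscle in the Ppm1k values was not tested.

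The catalytic subunits of BCKDH showed no such separation. Bckdha (E1 alpha) ran from 6825 to 10534 in WT and from 3535 to 11750 in KO, with a log2 fold change of -0.15 (SE 0.31). Bckdhb (E1 beta) had a log2 fold change of -0.14 (SE 0.25), and Dbt (E2) of 0.17 (SE 0.42). In the first and the second set these were 0.16 and -0.61 for Bckdha, 0.04 and -0.42 for Bckdhb and 0.13 and 0.23 for Dbt. Dbt was the only member with its highest value in KO 4, at 11534, and it was also high in WT 4 (7896) and WT 5 (5271) against 2372 to 3210 in WT 1 to 3. Of the exonic length of Bckdha, 61.7% is shared with B3gnt8 on the opposite strand, and the strand setting of the counts is not given in the sources used here, so reads of the 2 genes may not be told apart. Slc25a44, the mitochondrial BCAA carrier, had a log2 fold change of 0.27 (SE 0.15) within replicates 1 to 3 and of -1.18 (SE 0.47) within replicates 4 and 5.

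Within replicates 1 to 3, where Mgp followed the labels, 4 members rose in KO. They were Idh2 in the TCA cycle and Bcat2, Auh and Hsd17b10 in BCAA breakdown (limma, adjusted p under 0.05 over 13714 genes), where 1.90% of tested genes were called higher and 1.65% lower. edgeR within the set called 3 of these, with Auh at an adjusted p of 0.0576. The calls depended on the libraries kept, and most on WT 2, the library whose Xist level goes against its label. Without WT 2 no member was called and 0.190% of all genes were called. Without WT 1, WT 3, KO 1 or KO 3 instead, 2, 2, 1 and 3 members were called. Over all genes 106, 124, 93 and 157 were called there, against 486 with no library left out. Without KO 2 there were 4 members and 811 genes. Without WT 2, 8 of the 35 members had an unadjusted p under 0.05 (background 14.8%). Counts of members without overlap were near the background in this set, with 7 higher (20% of members, background 15.5%) and 5 lower (14.3%, background 15.1%).

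Idh2 (chr7:80094846-80115392) encodes the NADP-dependent isocitrate dehydrogenase of the mitochondrion, which makes NADPH. It had 7453, 5520, 7405, 5636 and 4686 in WT and 17192, 15753, 15347, 3037 and 12022 in KO. The 4 KO libraries other than KO 4 lay far above all WT libraries, and KO 4 lay below them. Within replicates 1 to 3 the mean was 2.37 times that of WT, with a log2 fold change of 1.26 (SE 0.15, limma adjusted p = 0.0112), and without WT 2 it was 1.11 (adjusted p = 0.0700). Without KO 1 it was 1.21 (adjusted p = 0.0515). Over all libraries the log2 fold change was 0.85 (SE 0.43, limma adjusted p = 0.531), and with KO 4 left out it was 1.31 (SE 0.19, adjusted p = 0.0246), the only member called there (background 0.678%). Within replicates 4 and 5 it was 0.23 (SE 0.66). The muscle marker sums of KO 1 to 3 were 242, 35127 and 202, and without KO 2 the log2 fold change of Idh2 within replicates 1 to 3 was 1.27 (limma adjusted p = 0.00835). Leaving out KO 2 raised the calls over all tested genes in that set from 486 to 811. The part of muscle in the Idh2 values was not tested.

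The NAD-dependent isocitrate dehydrogenase, which runs the same oxidation in the cycle itself, overlapped between the groups of 5 in all 3 of its genes. Idh3a, Idh3b and Idh3g had log2 fold changes of -0.17, 0.17 and 0.13 within replicates 1 to 3, with limma adjusted p of 0.543, 0.572 and 0.667. In the second set they were -1.01, -0.97 and -0.67, with the KO values of Idh3a and Idh3g below those of WT there. The ratio of Idh2 to Idh3a per kb of exon was 0.292 to 0.807 in WT and 1.09 to 2.15 in the 4 KO libraries other than KO 4, which was at 0.759. In rank of level per kb among the 14 TCA genes, Idh2 was at places 10 to 12 in the WT libraries (mean 2373 ± 476 normalized counts per kb, SD, n = 5), and in KO (4896 ± 2206) at places 2 to 5 except in KO 4, where it was at 10.

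Bcat2 (chr7:45570153-45589711), the mitochondrial transaminase that starts BCAA breakdown, had 2112, 1913, 2103, 3015 and 1563 in WT and 4264, 5290, 4222, 814 and 2995 in KO. KO 1 to 3 were above all WT libraries, KO 5 was level with WT 4, and KO 4 was the lowest of all. Its log2 fold change was 1.16 (SE 0.13, limma adjusted p = 0.00922) within replicates 1 to 3 and -0.47 (SE 0.65) within replicates 4 and 5. Without WT 2 the first value was 1.12 (adjusted p = 0.0705). Of its exonic length, 15.9% is shared with 0610005C13Rik on the opposite strand. Setting all 5 WT libraries against KO 1 to 3, limma called Idh2 and Bcat2 among the members (background 1.95%), a contrast in which only the WT group holds replicates 4 and 5, so that genotype and set are partly mixed.

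Hsd17b10 (chrX:152001845-152004442), the dehydrogenase before the last step of isoleucine breakdown and also a subunit of mitochondrial RNase P, had 2195, 1951, 2493, 4226 and 2276 in WT. In KO it had 5452, 8972, 4459, 1324 and 4794, so that 4 of the 5 KO libraries were above all WT libraries and KO 4 was below them. The log2 fold change within replicates 1 to 3 was 1.45 (SE 0.25, limma adjusted p = 0.0312), and without any single WT library or without KO 1 it was 1.36 to 1.54 with an adjusted p of 0.0735 to 0.144. KO 2, the highest library, held muscle markers, and without it the log2 fold change was 1.16 (adjusted p = 0.00698). Over all tested genes in that set 811 were called without KO 2, against 486 with it. The part of muscle in the Hsd17b10 values was not tested. For Auh the log2 fold change was 0.57 (SE 0.12, limma adjusted p = 0.0441), and the call was lost with each library left out except KO 2 (0.49 to 0.62 over the libraries left out, with an adjusted p of 0.0881 to 0.200 where it was lost and 0.0248 without KO 2).

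**Figure D3:**
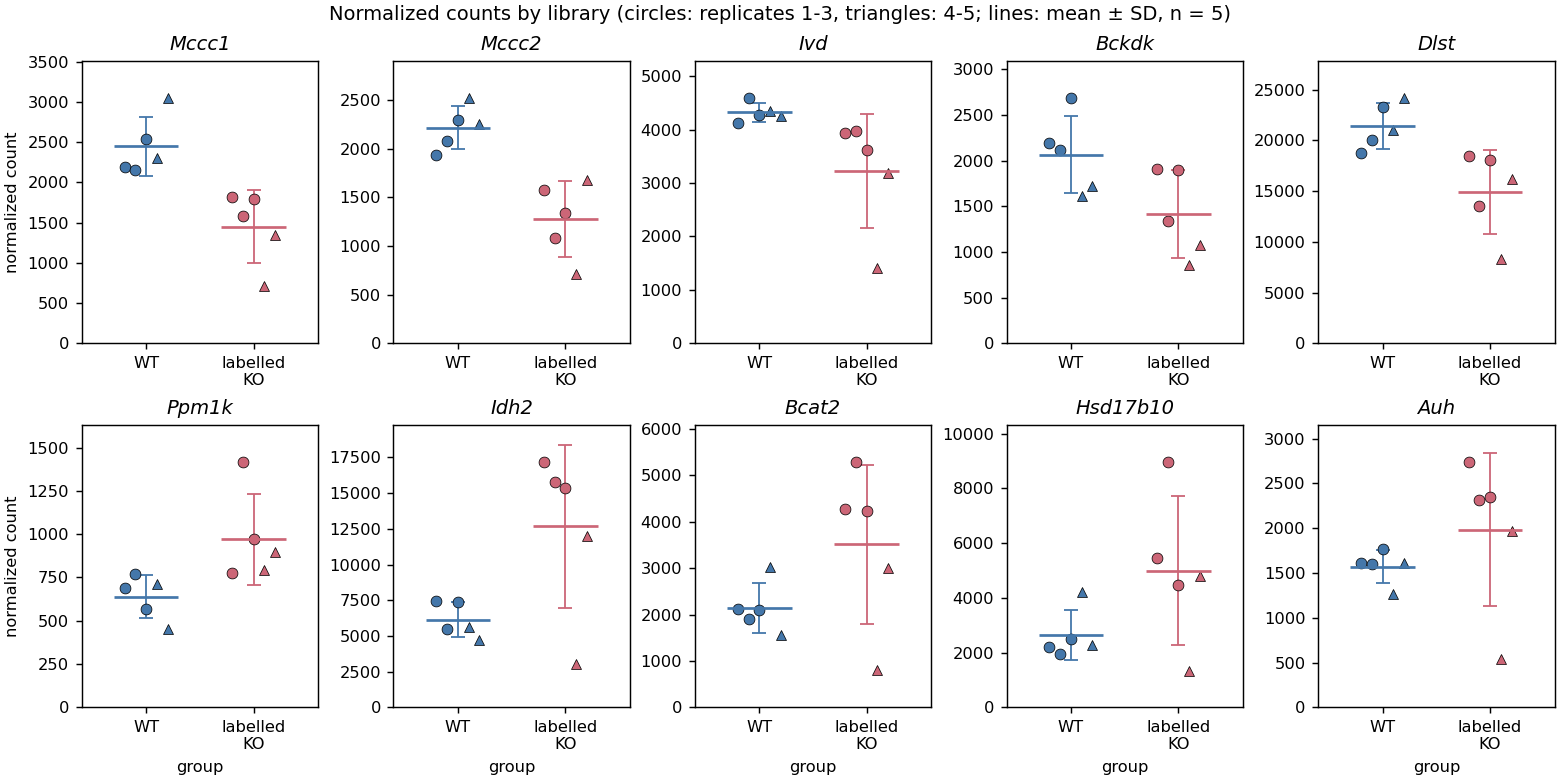
Normalized counts of 10 members in each library, with circles for replicates 1 to 3, triangles for replicates 4 and 5, and the mean ± SD of each group (n = 5). Mccc1, Mccc2, Ivd and Dlst show all KO points below all WT points and Ppm1k the reverse, and in Idh2, Bcat2, Hsd17b10 and Auh the KO 4 triangle is the lowest point of all.

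Around the rest of the cycle, the log2 fold changes within replicates 1 to 3 lay between -0.37 (Pcx) and 0.17 (Idh3b), and limma called none of these genes. Citrate synthase (Cs), which condenses acetyl-CoA with oxaloacetate, had a log2 fold change of 0.10 (SE 0.18) there and -0.90 (SE 0.70) within replicates 4 and 5. The oxoglutarate dehydrogenase complex has Ogdh, Dlst and Dld as E1, E2 and E3, and Dld also serves BCKDH and pyruvate dehydrogenase. Ogdh had -0.03 (SE 0.19), Dlst -0.32 (SE 0.17) and Dld -0.24 (SE 0.13) in the first set, and -0.67, -0.96 and -1.17 in the second. Dlst (chr12:85110833-85134845) was 18740, 20045, 23331, 21029 and 24193 in WT and 18474, 13499, 18030, 8308 and 16212 in KO. The gap between the highest KO and the lowest WT value was small for Dlst, and limma gave an adjusted p of 0.460.

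The succinyl-CoA synthetase genes Suclg1 (shared alpha subunit), Suclg2 (GTP-forming) and Sucla2 (ATP-forming) had log2 fold changes of -0.38, -0.29 and -0.40 over all libraries, with limma adjusted p of 0.692 to 0.721. In the first set they were -0.09, 0.03 and -0.05, and in the second -0.82, -0.77 and -0.92. Sucla2 was well above Suclg2 per kb of exon in every library, with a ratio of 16.6 to 26.7 in WT and 15.8 to 28.9 in KO. Fumarase (Fh1) and malate dehydrogenase (Mdh2) had -0.03 (SE 0.19) and -0.01 (SE 0.19) within replicates 1 to 3, and -0.92 and -0.83 within replicates 4 and 5. Pcx, pyruvate carboxylase, which refills oxaloacetate, was 11486, 13743, 17202, 6508 and 8010 in WT and 12318, 10532, 9695, 2932 and 4685 in KO. The sets differed more than the genotypes for Pcx: with the set term its genotype log2 fold change was -0.61 (SE 0.20, limma adjusted p = 0.138).

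The other genes of the isoleucine and valine routes had mixed values. Acadsb and Acad8, the dehydrogenases of the isoleucine and valine routes, had log2 fold changes of -0.17 (SE 0.22) and -0.20 (SE 0.16) over all libraries, 0.19 and -0.08 within replicates 1 to 3, and -0.72 and -0.37 within replicates 4 and 5. On the valine route, Hibch, Hibadh and Aldh6a1 had 0.13, 0.17 and 0.42 within replicates 1 to 3, with KO values of Hibadh and Aldh6a1 wholly above WT there, and -1.07, -1.0 and -0.82 within replicates 4 and 5. For Aldh6a1, 18.6% of the exonic length is shared with Bbof1 on the opposite strand. Acat1, the thiolase that ends isoleucine breakdown, had -0.12 (SE 0.15) and -1.17 (SE 0.56). Propionyl-CoA carboxylase has Pcca and Pccb as subunits: Pcca had -0.05 and -1.45, and Pccb 0.29 and -0.26. Mcee, the epimerase that follows, had -0.12 and -0.81. limma called none of these in either set.

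**Figure D4:**
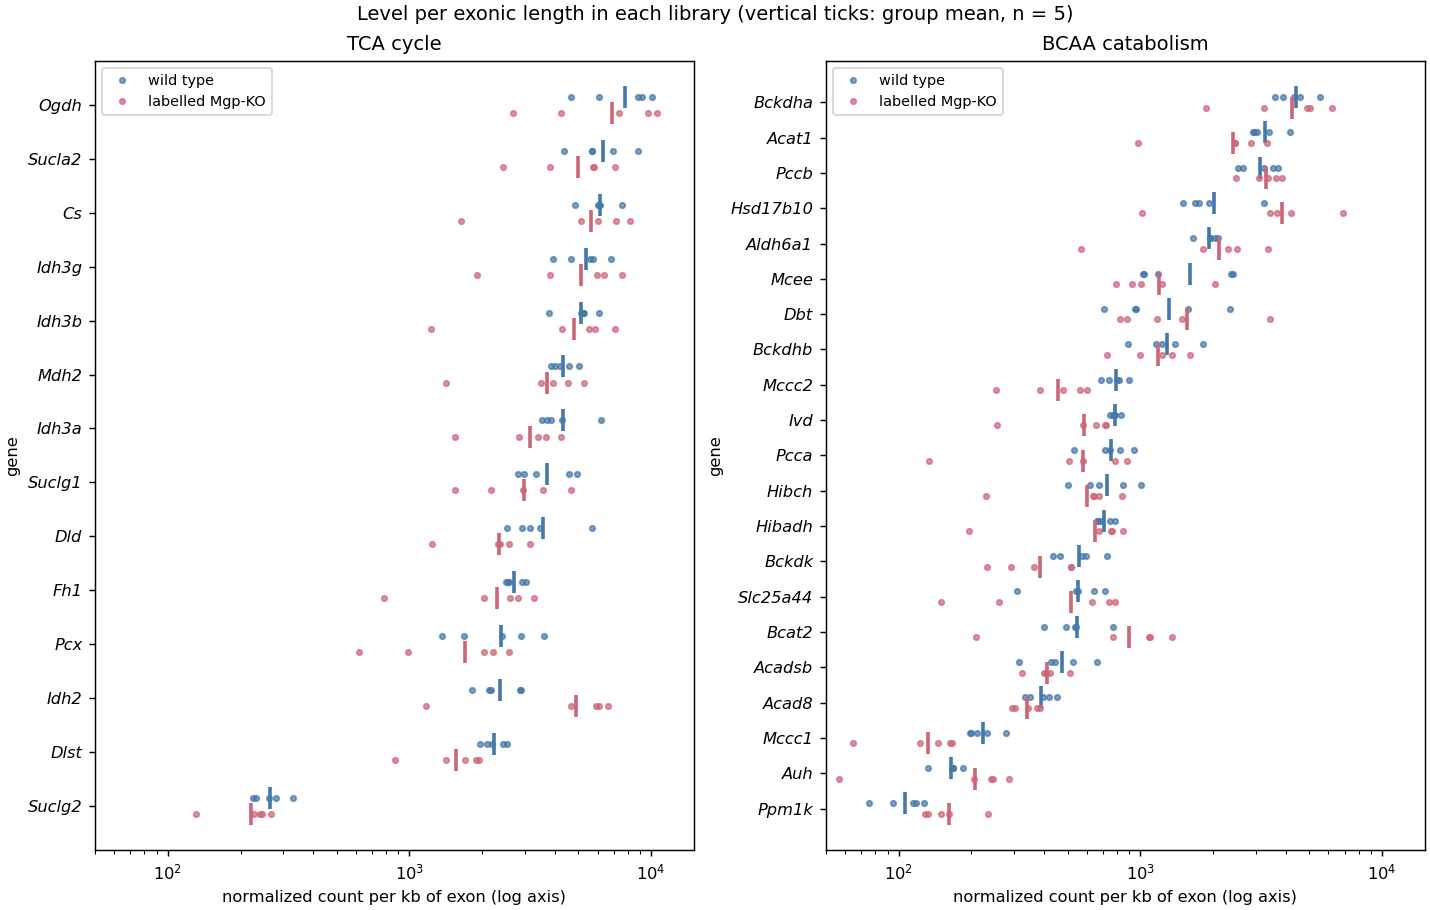
Normalized count per kb of exon on a log axis for each library, with vertical ticks at the group means (n = 5), genes ordered by their WT mean. TCA genes span Suclg2 (266 in WT) to Ogdh (7759), and BCAA genes span Ppm1k (106) to Bckdha (4388).

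Compared per kb of exon in the mean over WT, the TCA genes other than Suclg2 were higher than most BCAA genes. Suclg2, at 266, was above only Mccc1 (224), Auh (164) and Ppm1k (106) of the BCAA genes. In the mean over WT, Ogdh had the highest level of the TCA genes at 7759 ± 2285 normalized counts per kb (SD, n = 5), with Sucla2 at 6305 ± 1686 and Cs at 6141 ± 973 within the spread of it and of each other. That order changed with the set: Ogdh was first in WT 1 to 3, while Sucla2 was first in WT 4 (6956 against 4669 for Ogdh) and in WT 5 (8832 against 6079). Suclg2 was lowest in all 10 libraries, at a WT mean of 266 ± 43.0. Among the BCAA genes Bckdha had a WT mean of 4388 ± 750, Acat1 of 3293 ± 524 and Pccb of 3139 ± 525, the last pair within the spread of each other. The Bckdha level may include reads of B3gnt8, with which 61.7% of its exonic length is shared. Bckdha was first in WT 1 to 4 and Acat1 in WT 5. The BCKDH regulators were low, with Bckdk at 560 ± 115 and Ppm1k, the lowest, at 106 ± 20.9. Among the 21 BCAA genes Mccc2 was at places 9 to 11 in the WT libraries (mean 791 ± 79.7) and 12 to 16 in the KO libraries (456 ± 140). Bcat2 was at places 12 to 18 in WT (549 ± 138), and in KO (902 ± 440) at places 6 to 10 except in KO 4, where it was at 15. Exon length counts every annotated exon of the gene in GENCODE M21, so genes with long minor exons appear lower.

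Within replicates 4 and 5 limma called none of the 35 (background 0.00%), as did edgeR, and 4 had an unadjusted p under 0.05, all lower: Bckdk, Slc25a44, Mccc1 and Mccc2. The background was 6.23% in both directions, with 449 of 13714 tested genes lower. Without overlap, 19 members were lower in KO (54.3% of members, background 21.3%), which rests on 2 libraries a group, of which KO 4 was the lowest in most. The log2 fold change was lower in replicates 4 and 5 than in replicates 1 to 3 for 34 of the 35 members, with Dbt as the exception (background 51.0%). No member differed between the sets in a test of the difference itself: the limma adjusted p of the interaction of genotype and set ran from 0.455 to 0.974, and the background was 0.00729%. There, 6 members had an unadjusted p under 0.05, all with a negative interaction (Suclg2, Bcat2, Slc25a44, Mccc1, Acadsb and Hsd17b10). The background was 10.3% in both directions, with 728 of 13714 tested genes negative.

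**Figure D5:**
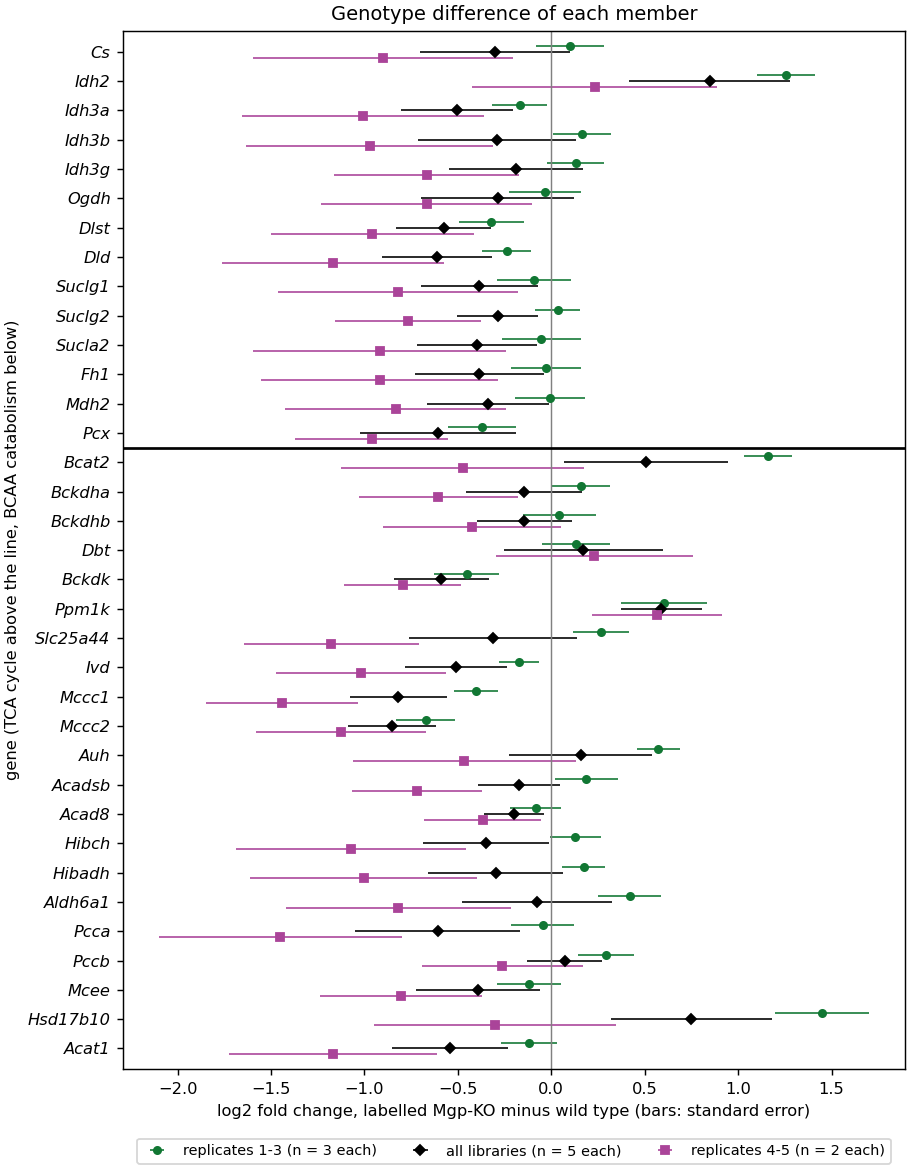
log2 fold change (labelled Mgp-KO minus wild type) with its standard error for each member over all libraries (n = 5 each), within replicates 1 to 3 (n = 3 each) and within replicates 4 and 5 (n = 2 each). The squares of replicates 4 and 5 lie left of the circles of replicates 1 to 3 for 34 of the 35 genes.

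The pathways were then set side by side. Over all libraries the median log2 fold change was -0.36 over the TCA genes and -0.20 over the BCAA genes, against 0.03 over all tested genes. Within replicates 1 to 3 the medians were -0.03 and 0.13 (0.02 over all genes), within replicates 4 and 5 they were -0.91 and -0.80 (0.02), and without KO 4 they were -0.07 and -0.03 (0.02). The difference of the medians, BCAA minus TCA, was 0.16 over all libraries, and it was not tested. The difference of the means in single libraries varied within the groups with an SD of 0.17. That SD is a spread between libraries and not the error of the 0.16. The difference of the means in single libraries ran from -0.12 to 0.25 in WT and from -0.06 to 0.39 in KO, so the groups overlapped. Over all libraries 13 of the 14 TCA genes and 15 of the 21 BCAA genes had a log2 fold change below 0, against 47.3% of all tested genes. Without KO 4 these counts were 9 and 11, within replicates 1 to 3 they were 9 and 8, and with all WT libraries set against KO 1 to 3 they were 7 and 12.

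The sets were also compared directly. Between replicates 4 and 5 and replicates 1 to 3, limma with genotype in the model called 6 members lower in replicates 4 and 5 (17.1% of members, background 19.9%) and 2 higher (5.71%, background 18.3%), shares that were not above those of all tested genes. Pcx (log2 difference -1.25), Ogdh (-1.12) and Idh3g (-0.89) of the TCA genes and Slc25a44 (-1.14), Bckdha (-0.74) and Bckdk (-0.65) of the BCAA genes fell, and Dbt (1.20) and Mcee (0.81) rose. Without KO 4, 14 members were called, or 40.0% against a background of 39.3%. Depth and the mitochondrial rRNA share differ between the sets in the same way, and these cannot be told apart from whatever else separates the sets.

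The neighbouring genes of the pathways were read from lists named in the same way. Of 22 other genes of the cycle and its exchange with the cytosol, limma called 1 lower over all libraries and, with the set term, 2 lower and 1 higher (background 2.36% in both directions). The citrate carrier Slc25a1 had 4792 to 14251 normalized counts in WT and 1522 to 2284 in KO, a log2 fold change of -2.0 (SE 0.30, adjusted p = 0.0471). Malic enzyme Me1 had -2.45 (SE 0.35, adjusted p = 0.0108 with the set term), and Pck2, the mitochondrial PEP carboxykinase, 1.38 (SE 0.28, adjusted p = 0.0321). Both Slc25a1 and Me1 take part in fatty acid synthesis, and of 13 lipogenic genes, which include them, limma with the set term called 8 lower and none higher (against the same background), led by Fasn (-3.86, SE 0.43), Scd1 (-4.36, SE 0.50) and Acaca (-2.52, SE 0.29), each with an adjusted p of 0.00585.

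Of 16 further genes of BCAA breakdown and transport, 14 were tested and 1 was called with the set term, Acsf3, the mitochondrial malonyl-CoA synthetase (-0.82, SE 0.18, limma adjusted p = 0.0408). Of 12 genes of pyruvate entry, limma with the set term called Pdhb, the E1 beta subunit of pyruvate dehydrogenase (-1.33, SE 0.23, adjusted p = 0.0162), with 8 lower and none higher at an unadjusted p under 0.05 (backgrounds 10.1% and 9.26%) and a median of -0.64. That median was -0.41 without KO 4 and -0.22 within replicates 1 to 3. Of 18 genes of fatty acid oxidation none was called by limma with the set term, with 5 lower and none higher at an unadjusted p under 0.05 (same backgrounds) and a median of -0.42, which was -0.14 without KO 4 and -0.09 within replicates 1 to 3. Of 12 regulator genes 11 were tested and none was called, with 2 lower and 1 higher at an unadjusted p under 0.05. DESeq2 with the set term called more of these genes (background 7.42%). It called 4 lower and 3 higher of the 22 other cycle genes, 4 lower and 2 higher of the 14 tested BCAA genes, 3 lower of the pyruvate genes, 2 lower of the fatty acid oxidation genes, 11 lower of the 13 lipogenic genes and none of the regulators. The pyruvate genes were Pdhb, Mpc2 and Dlat and the fatty acid oxidation genes Cpt2 and Hadha, of which all but Pdhb were named after their values were seen. In the first and the second set, the limma log2 fold changes were -1.90 and -2.15 for Slc25a1, -2.76 and -1.98 for Me1, 1.67 and 0.93 for Pck2, -0.65 and -1.08 for Acsf3 and -1.18 and -1.56 for Pdhb. With WT 2 left out, Slc25a1 and Me1 were still called with the set term, while the log2 fold changes were 1.29 (SE 0.31, limma adjusted p = 0.0961) for Pck2, -0.87 (SE 0.20, adjusted p = 0.0857) for Acsf3 and -1.37 (SE 0.25, adjusted p = 0.0502) for Pdhb.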

How the data were processed

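Total RNA from iBAT was sequenced as single reads of 50 bases. Per the labels and the study's methods, the authors aligned reads to mm10 with STAR, counted them per gene and divided them by DESeq2 size factors; the strand setting and annotation release are not given in the sources used here. The deposited values are this normalized count signal. Each divided evenly into whole reads (within 0.02 reads), and these reads were used for edgeR 4.0.16 and DESeq2 1.42.0.

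limma 3.58.1 (R 4.3.3; lmFit, eBayes with trend) compared log2(normalized count + 1) over 13714 genes, after dropping those whose mean was under 10, with Benjamini-Hochberg adjustment and a threshold of 0.05; fold changes are on that scale. The code was tested on simulated data. Depth was 9253793 to 22252260 reads on genes per library. The smallest member value was 455, so counting error is small beside the spread between libraries. Counting error is not small beside the gap between the groups for Ppm1k (768 in WT 2, 774 in KO 1). Gene positions came from GENCODE M21 and upstream sequences from RefSeq (GRCm38.p6).

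The members and lists were chosen with earlier results of these data known. Named were all members, up to 4 genes of each other list past the threshold over all libraries or with the set term, tissue markers, Mgp and Xist. Genes named outside this rule are said to have been named after their values were seen. Marker lists covered brown adipocytes, skeletal muscle, endothelium, erythroid and myeloid cells, progenitors and Y-linked genes. The alternatives were other pseudocounts, filters, scalings and tools, a replicate block, a set term, each set alone and each library left out. Those leaving out KO 4 and KO 5, or WT 2 with the set term, and those leaving out libraries within a set, were added after seeing the data.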

Additional observations from a re-analysis of the deposited data

Results flagged for a closer look

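In 9 of the 70 groups checked (35 genes in WT and in KO), 1 library lay far from the other 4, by Dixon's test on the log2 values (gap over range above 0.710), and in all 9 it was KO 4 at the low end. The gap took 0.713 of the range for Cs, 0.794 for Idh2, 0.711 for Idh3b and 0.772 for Suclg2 among the TCA genes. For the BCAA genes it took 0.786 for Ivd, 0.797 for Auh, 0.783 for Hibch, 0.842 for Hibadh and 0.755 for Acat1. Chance alone marks about 1 in 20 groups, and the genes share their libraries, so the 9 are not separate events. KO 4 also had the lowest depth (9253793 reads on genes), the highest share of mitochondrial rRNA reads (16.7%) and the highest erythroid marker sum (101722). The part of these in its low values was not tested.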

How the results depend on the processing

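The 0 calls over all libraries held with other pseudocounts, filters and scaling, with the set term, edgeR and DESeq2. TCA cycle calls were 1 within replicates 1 to 3, 2 by DESeq2 with the set term, 1 for all WT against KO 1 to 3, and 0 to 1 with a library left out (1 without KO 4). BCAA calls were 3, 3, 1 and 0 in the same settings. The medians moved to -0.91 (TCA) and -0.80 (BCAA) within replicates 4 and 5, and their difference to -0.025 for all WT against KO 1 to 3. Within replicates 1 to 3, leaving out a library gave 0 to 4 calls (0 without WT 2, 1 without KO 1, 2 without WT 1 or WT 3). Set differences numbered 8 to 14 of 35 (14 without KO 4, near the background of 39.3% there). The cause of these moves was not tested.

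Signs turned within replicates 1 to 3 for Cs (0.10), Idh3b (0.17), Idh3g (0.13), Suclg2 (0.034), Bckdha (0.16), Bckdhb (0.044), Slc25a44 (0.27), Acadsb (0.19), Hibch (0.13), Hibadh (0.17) and Aldh6a1 (0.42), and within replicates 4 and 5 for Bcat2 (-0.47), Auh (-0.46), Pccb (-0.26) and Hsd17b10 (-0.30). Aldh6a1 was 0.13 by edgeR and DESeq2, and 0.024 and 0.027 with the set term. With each library left out, the log2 fold change ran from -0.48 to 0.10 for Cs, -0.48 to 0.15 for Idh3b, -0.37 to 0.13 for Idh3g, -0.48 to 0.011 for Ogdh, -0.31 to 0.12 for Bckdha, -0.27 to 0.020 for Bckdhb, -0.17 to 0.42 for Dbt, -0.53 to 0.067 for Slc25a44, -0.0064 to 0.58 for Auh, -0.44 to 0.094 for Hibadh, -0.30 to 0.34 for Aldh6a1 and -0.0027 to 0.17 for Pccb. The turn came without KO 4 for all of these except Auh (without KO 1) and Pccb (without WT 1), and Dbt also turned without WT 3.

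The replicate block called 0 members and 270 of 13714 genes, against 9 without it. The study describes pairs of mice, but no source used here ties the numbers to them. They were not taken as pairs: same-numbered libraries correlated at 0.06 to 0.53, and the same number was the best match in 5 of 10 cases. The set of replicates 4 and 5 has n = 2 a group, which limits what its tests can call.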

Other observations

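Some neighbouring genes with a call by limma within replicates 1 to 3 are given here as values; they were named after their values were seen. Of the 22 other genes of the cycle and its exchange with the cytosol, 5 were called higher in KO within that set (Pck2, Got1, Got2, Me3 and Glud1; background 1.90%) and 2 lower (Me1 and Slc25a1; background 1.65%), and of the 14 tested further BCAA genes 2 were called higher (Slc3a2 and Slc7a8). Without WT 2 the calls in that set went from 486 to 26 of all tested genes, and none of these 9 was called, with adjusted p of 0.0767 (Me1) to 0.180 (Me3). Glud1, glutamate dehydrogenase, was 3488, 3577 and 3538 in WT 1 to 3 and 6587, 6392 and 5767 in KO 1 to 3 (log2 fold change 0.82, SE 0.11, limma adjusted p = 0.0137; 0.101 without WT 2), and 3931 and 3532 in WT 4 and 5 against 2015 and 4168 in KO 4 and 5. The aspartate aminotransferases had log2 fold changes of 1.05 (Got1) and 0.84 (Got2) in replicates 1 to 3, and of 0.27 and 0.72 in replicates 4 and 5. The transporter subunits Slc3a2 and Slc7a8 had 1.66 and 4.46 within replicates 1 to 3, and -0.26 and 0.90 within replicates 4 and 5. Slc7a8 was 142 to 235 in WT 1 to 3, 2484, 11215 and 1837 in KO 1 to 3, 236 and 62.3 in WT 4 and 5 and 77.7 and 664 in KO 4 and 5, and the muscle marker sum of KO 2 was 35127. The part of muscle in the Slc7a8 values was not tested. Bcat1, the cytosolic transaminase of the BCAA, was not called, with -1.36 (SE 0.30, limma adjusted p = 0.0555) within replicates 1 to 3.

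The summed markers of myeloid cells were 1346 to 2078 in WT and 1453 to 2156 in KO, and those of progenitors 17283 to 49332 and 12565 to 29551. The Y-linked sum was 3.74 in WT 2 and 1457 to 7035 in the other 9 libraries.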
